A study of Homo sapiens with 2 samples.

Results

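Glutamine synthesis, uptake and use were followed through 9 genes in the established human myeloma line LP-1, with and without added HIF-2α. They are GLUL, GLUD1, GOT1, GOT2, GPT2, SLC1A5, SLC38A1, SLC38A2 and GFPT1, picked by name with earlier results of the same arrays known. A gene counted as measured when the array annotation gives at least 1 probe set, a group of probes read out as 1 value, that carries its symbol and no other. Of the 9 genes 7 were measured, by 9 probe sets, among 18377 genes in all. Expression of GLUD1 and GPT2 was not analysed here.

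The data are 2 whole-transcript Affymetrix arrays. In the vector control the vector, pRUF-IRES-GFP, was empty. In the HIF2A array the LP-1 cells held pRUF-IRES-GFP-HIF2A, the same vector with the full-length human HIF-2α cDNA, introduced by infection and kept stably. HIF-2α, encoded by EPAS1, is the subunit of a transcription factor that is degraded when oxygen is plentiful. Whether each line was 1 clone or a pool, and the oxygen level of the cultures, were not stated in the labels. Each group has 1 array, so no difference has a replicate check, no test or p-value is possible, and the number of arrays limits the precision of every value.

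Signals are log2 values, on which a difference of 1 is 2-fold, and differences are HIF2A minus vector control. EPAS1, the check of the labels, read 3.70 in the vector control and 9.05 in the HIF2A array. Of 10 plasma cell markers 9 passed the filter on dim genes, a signal of 4.01 in the brighter array. JCHAIN, the joining chain of secreted antibodies, had 12.59 and 12.55, and CD27 stayed below the filter at 3.53 and 3.62. Of the 9 plasma cell markers past the filter 4 were higher and 5 lower in the HIF2A array. Only SLAMF7 and TNFRSF17, with differences of -2.39 and -1.03, were at least 1.5-fold apart. Of the measured markers of other cells, 3 of 3 for mature B cells, 4 of 5 for T and NK cells, 3 of 4 for myeloid cells and 2 of 4 for stromal cells were below the filter in both arrays. The brightest of them were NKG7 at 4.47 and 4.81 and COL1A1 at 4.72 and 4.59. In bulk RNA, fewer cells with a transcript and less of it per cell cannot be told apart.

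Glutamine is the most abundant free amino acid of plasma and carries nitrogen between tissues. Cells take it up through transporters of the SLC1 and SLC38 families or make it from glutamate and ammonia with glutamine synthetase, the product of GLUL. Inside the cell its amide nitrogen goes into nucleotides, asparagine and amino sugars, and the remaining glutamate is turned into α-ketoglutarate by glutamate dehydrogenase or by transaminases. Myeloma cells are known for low glutamine synthetase and for depending on glutamine from outside.

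Across the measured genes of the selection, the synthesis gene GLUL was lower in the HIF2A array and the uptake and use genes differed little. The use genes measured were GOT1, GOT2 and GFPT1 only. Of 50 other glutamine and glutamate genes, read below, ASNS and PSAT1 were at least 2-fold lower and 0 at least 2-fold higher. GLUL was 3.48-fold lower by its brighter probe set. The other 6 measured genes had differences between 0.07 and 0.42, all within 1.5-fold. Of the 7 genes, all past the filter, 1 was at least 2-fold lower, where 0.732% of the 11469 genes past the filter were. None, 0 of 7, was at least 2-fold higher, where 0.706% of all genes were. The genes were chosen with these differences known, so the counts only describe the selection.

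**Figure D1:**
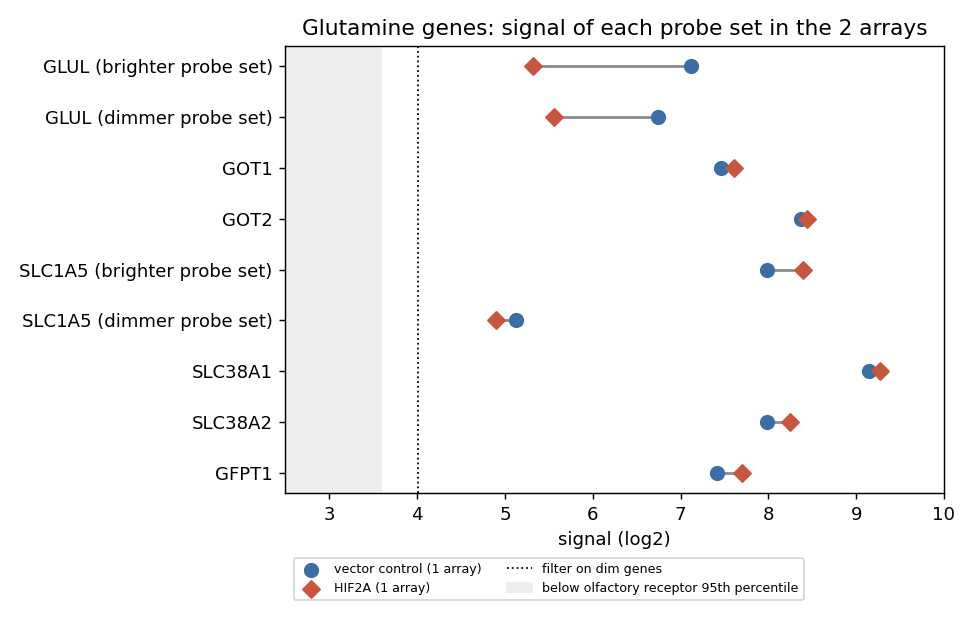
Signal (log2, horizontal axis) of each of the 9 probe sets in the vector control (circles) and the HIF2A array (diamonds), 1 array each. Dotted line, filter on dim genes at 4.01; grey, signals within the olfactory receptor background defined in the text. Both GLUL probe sets lie to the left in the HIF2A array, at 5.32 against 7.12 and 5.56 against 6.74, while the other probe sets moved by 0.42 or less.

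GLUL has 2 probe sets. The brighter one read 7.12 in the vector control and 5.32 with HIF-2α, a difference of -1.80. The dimmer one had 6.74 and 5.56, a difference of -1.18 or 2.27-fold lower. The HIF2A array was thus the lower one on both, at 28.7% and 44.1% of the vector control's linear signal. All 4 signals were above 3.59 and 3.58, the 95th percentiles of 359 olfactory receptor genes in the respective arrays, which were taken as a measure of background.

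The array annotation lists the same 14 transcript accessions for both GLUL probe sets, so they are given as readings of 1 gene and not as independent replicates. RefSeq names 6 pseudogenes of GLUL, and the array annotation gives none of them as the only symbol of a probe set. Probe positions were not available, so whether either GLUL probe set lies at such a copy was not tested. Cross-hybridization between GLUL and these copies was not tested. The 2 differences lay 0.62 apart. This gap was also taken in other genes with several probe sets past the filter, between the brightest and the next. Genes in which these 2 sets had identical values in both arrays were left out, which left 333. The median gap over the 333 genes was 0.15, and in 49 of them, GLUL included, it was at least as wide as in GLUL. In 2 of the 333 genes both probe sets were at least 2-fold lower. These are GLUL and C4orf46, with -1.24 and -1.05, the latter named after its values were seen.

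**Figure D2:**
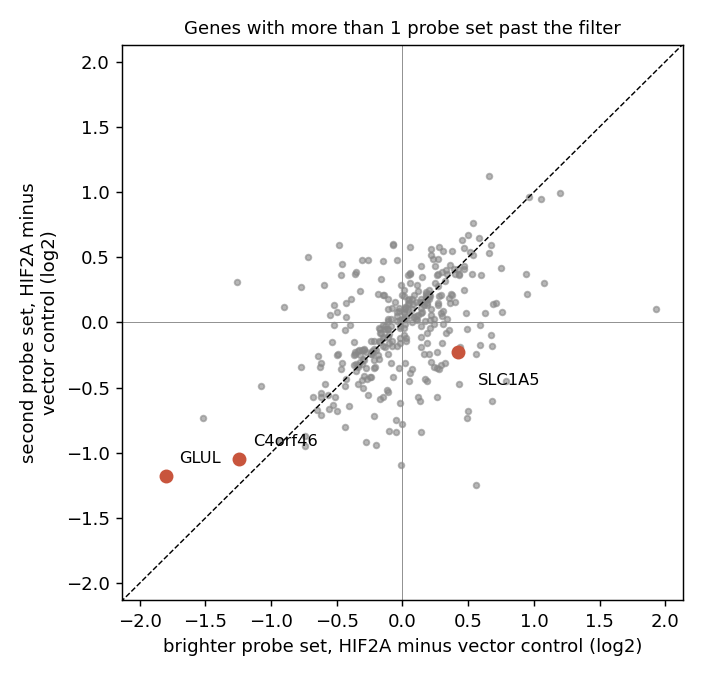
Difference, HIF2A minus vector control (log2), of the brightest probe set (horizontal axis) and of the next (vertical axis) for 333 genes with more than 1 probe set past the filter. Genes with identical values in these sets were left out. Dashed line, equal differences. GLUL, at -1.80 and -1.18, and C4orf46 lie at the lower left, and SLC1A5 has one positive and one negative value.

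The 11469 genes past the filter had a median difference of 0.03 with a robust SD (scaled median absolute deviation) of 0.34. By its brighter probe set, at -1.80, GLUL had the most negative difference but 5 among them, at rank 6. That set was taken for its mean signal over both arrays, 6.22 against 6.15, and the dimmer set had -1.18. The rank is only a description, because GLUL was picked with these differences known. By the brighter set, the 5 genes closest to GLUL by Euclidean distance over the 2 signals were TUBB2B, RNU5D-1, ZNF626, RPL39L and CTSZ, at distances from 0.103 to 0.488. With 2 arrays this likeness says no more than that both signals were near those of GLUL. TUBB2B, a tubulin gene, had 7.03 and 5.37. CTSZ, the gene of a lysosomal cathepsin, had 7.33 and 5.76.

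The genes around GLUL on chromosome 1 were not lower as a group. Its 20 nearest genes past the filter had a median difference of 0.085, with 13 higher and 7 lower. The flanking genes ZNF648 and RGS16 differed by 0.05 and 0.02. In the window NIBAN1, 10 genes away from GLUL in this order, also stood low, at 4.50 against 6.20, a difference of -1.70. It was named after its value was seen. The highest of the 20 was KIAA1614 at 0.54.

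**Figure D3:**
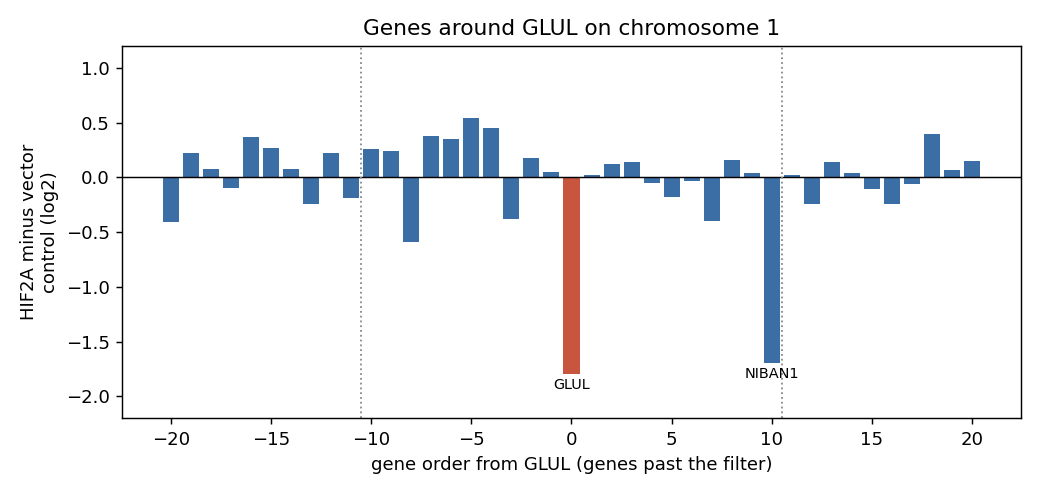
Difference, HIF2A minus vector control (log2, vertical axis), of the genes past the filter around GLUL on chromosome 1, by gene order (horizontal axis). Dotted lines bound the 20 nearest genes. GLUL at -1.80 and NIBAN1 at -1.70 are the bars below -1, and the 20 neighbours have a median of 0.085.

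The promoter of GLUL is shown because the results turn on this gene, and that of ASNS because this user of glutamine was also at least 2-fold lower, a choice made after its values were seen. They are the 250 bases before the outermost RefSeq start of each gene, GRCh38.p14, minus strand, 5′ to 3′. GLUL lies at chr1:182391791-182392040 and ASNS at chr7:97872409-97872658. Capitals mark matches, on either strand, to the core of the HIF response element, ACGTG or GCGTG, and to the core of the ATF4 element, TGATGNAA.
GLUL: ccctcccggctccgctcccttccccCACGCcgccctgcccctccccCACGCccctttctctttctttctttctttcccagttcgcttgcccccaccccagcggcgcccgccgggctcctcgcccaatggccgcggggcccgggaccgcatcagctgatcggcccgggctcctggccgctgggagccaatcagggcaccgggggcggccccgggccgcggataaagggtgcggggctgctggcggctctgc
ASNS: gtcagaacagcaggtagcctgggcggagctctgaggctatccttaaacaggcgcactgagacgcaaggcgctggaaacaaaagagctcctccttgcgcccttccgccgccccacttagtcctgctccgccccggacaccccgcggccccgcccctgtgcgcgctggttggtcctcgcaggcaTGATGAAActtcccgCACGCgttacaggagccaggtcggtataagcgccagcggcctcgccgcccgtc

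In the GLUL sequence the capitals are 2 copies of GCGTG on the opposite strand, starting 225 and 204 bases before the start. Within the 50 bases after the start the window holds another, at base 27. A second GLUL start has 1 GCGTG, 171 bases before it. PSAT1, the other glutamate or glutamine gene at least 2-fold lower, has no ATF4 core in its window and 1 GCGTG, on the opposite strand at base 39 after the start. In ASNS the capitals are an ATF4 core 68 bases and a GCGTG on the opposite strand 53 bases before the start. A second ASNS start has 1 GCGTG, 133 bases before it, and no ATF4 core in its window. ACGTG and its reverse complement overlap in CACGTG and were counted on each strand.

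Of the 9 genes 8 were matched to RefSeq promoters, GLUD1 among them, with 12 windows of 300 bases, 250 before and 50 after a start. A HIF core stood in 10 of the 12, among them windows of GFPT1, GOT1, GOT2, SLC1A5 and SLC38A1, and in 48.4% of all 35116 promoters in the table. The ATF4 core stood in 3 of the 12, in windows of GOT1, SLC1A5 and SLC38A1, and in 3.62% of all. These are matches of letters. Binding was not measured here.

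The 3 uptake genes were all within 1.5-fold between the arrays. SLC1A5, whose product ASCT2 is a sodium-dependent neutral amino acid exchanger and a main route of glutamine into tumour cells, read 7.98 in the vector control and 8.40 with HIF-2α by its brighter probe set, a difference of 0.42. Its dimmer probe set, which the annotation ties to 2 accessions against 11 for the brighter one, had 5.13 and 4.90, a difference of -0.23. The direction of SLC1A5 therefore depends on the probe set, and the gap of 0.65 was reached or exceeded in 41 of the 333 genes with several probe sets, SLC1A5 included.

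SLC38A1 and SLC38A2 encode the sodium-coupled carriers SNAT1 and SNAT2 and are adjacent among the genes past the filter on chromosome 12. SLC38A1 had 9.15 and 9.27, a difference of 0.12. SLC38A2, known to be induced when amino acids run short, had 7.98 and 8.25, a difference of 0.27. Both differences lie inside the robust SD of all genes. The 20 nearest genes had medians of 0.215 for SLC38A1, above its own difference, and 0.20 for SLC38A2, below its own. Each gene lies in the window of the other, so the windows overlap and are not separate readings.

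The transaminases GOT1 and GOT2 move the amino group of glutamate onto oxaloacetate in the cytosol and in mitochondria and belong to the malate-aspartate shuttle. GOT1 had 7.46 in the vector control and 7.61 with HIF-2α, a difference of 0.15. GOT2 had 8.37 and 8.44, a difference of 0.07, with a neighbour median of 0.12. Neither enzyme gene differed by as much as the robust SD.

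GFPT1 encodes the enzyme that passes the amide nitrogen of glutamine to fructose 6-phosphate, the rate-limiting entry into the hexosamine pathway that feeds glycosylation. It had 7.41 and 7.70, a difference of 0.29 or 1.22-fold higher. Its 20 nearest genes had a median of -0.14, opposite in sign to the gene.

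Over the 7 measured genes the median difference was 0.15 and the mean -0.069, which differ in sign. Without GLUL the median was 0.21 over 6 genes. Of the 11469 genes past the filter, 52.6% had positive and 46.1% negative differences.

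Other genes that handle glutamine and glutamate, 70 chosen by their role, were read alongside. Of these 65 were measured and 50 passed the filter. Their median difference was 0.08, against 0.03 for all genes, with 29 higher, 20 lower and 1 equal. At least 1.5-fold lower were 3 of the 50, or 6.0%, where 4.76% of all genes were, and at least 1.5-fold higher were 2, or 4.0%, where 5.67% of all genes were. Both of these shares are near those of all genes. Among the genes counted, SLC7A11 at 4.54 and 3.85 and ALDH4A1 at 3.49 and 4.26 passed the filter only through their brighter array. With the 75th percentile filter 2 genes were at least 1.5-fold lower and 1 at least 1.5-fold higher. At least 2-fold lower were 2 of the 50, ASNS and PSAT1, or 4.0%, where 0.732% of all genes were. At least 2-fold higher were 0, where 0.706% of all genes were. This list was also drawn up with earlier results of these arrays known, so its counts and shares only describe it.

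**Figure D4:**
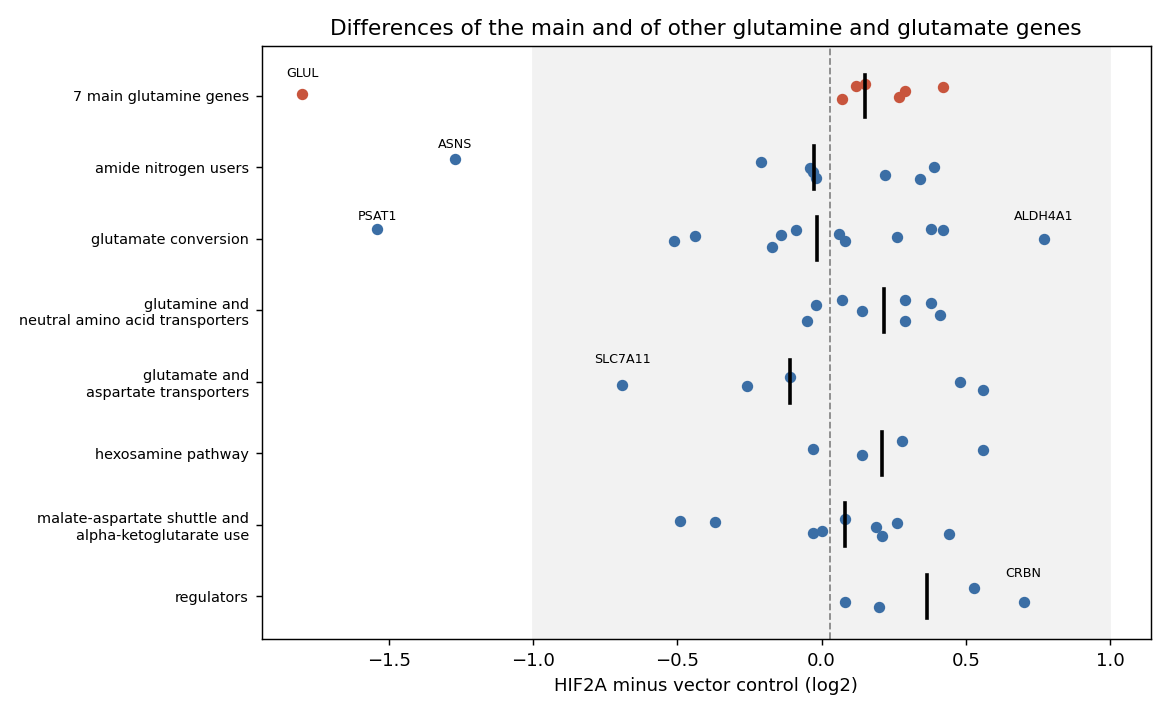
Difference, HIF2A minus vector control (log2, horizontal axis), of the 7 measured genes (orange) and of 50 other glutamine and glutamate genes past the filter, by role (blue). Each point is 1 gene, black bars are medians, the dashed line is the median of all genes at 0.03, and the grey band spans differences under 2-fold. GLUL, PSAT1 and ASNS are the 3 points outside the band.

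Genes that use the amide nitrogen had a median of -0.025 over 8 genes. ASNS, which makes asparagine from aspartate and glutamine, had 7.87 in the vector control and 6.60 with HIF-2α, a difference of -1.27 or 2.41-fold lower. Its 20 nearest genes had a median of -0.22. The CTP synthase gene CTPS1 had -0.21 and CAD, of pyrimidine synthesis, -0.04. The purine synthesis genes PFAS and GMPS had 0.39 and 0.22, and QRSL1, a subunit of the mitochondrial glutamyl-tRNA amidotransferase, had 0.34.

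Genes that convert glutamate went both ways, with 6 higher and 6 lower of 12 and a median of -0.015. PSAT1, a transaminase of serine synthesis that turns glutamate into α-ketoglutarate, had 8.63 in the vector control and 7.09 with HIF-2α, a difference of -1.54 or 2.91-fold lower. Its neighbours had a median of 0.01. PYCR3, of proline synthesis, had -0.51, and NIT2, which completes the transaminase route of glutamine breakdown, -0.44. ALDH18A1, which starts proline synthesis from glutamate, had 0.42, and the transaminase gene KYAT1 0.38. ALDH4A1, of proline breakdown, had 3.49 in the vector control and 4.26 with HIF-2α. The first value is below the 95th percentile of olfactory receptors, so the HIF2A signal is given against that level, 1.59-fold above it. With 1 array per group this is no firm lower bound on the difference.

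Among carriers of glutamine and neutral amino acids 8 genes passed the filter, 6 with positive and 2 with negative differences, with a median of 0.215 and none at least 1.5-fold apart. SLC38A9, a lysosomal amino acid sensor of mTORC1, had 5.60 and 6.01, SLC38A7, a lysosomal glutamine exporter, 4.85 and 5.23, and SLC38A5 8.20 and 8.49. SLC3A2, the heavy chain of several amino acid exchangers, had the same pair of values, 8.20 and 8.49, from another probe set. SLC1A4 and SLC7A9 had -0.05 and -0.02.

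Carriers of glutamate and aspartate had a median of -0.11 over 5 genes. SLC7A11, which exports glutamate in exchange for cystine, had 4.54 and 3.85, a difference of -0.69, and lies among neighbours with a median of -0.545, of which 19 of 20 were lower. The mitochondrial aspartate-glutamate carrier genes SLC25A12 and SLC25A13 had 0.56 and -0.26. SLC25A22, a mitochondrial glutamate carrier gene, had 0.48, among neighbours with a median of 0.29.

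Downstream of GFPT1, the hexosamine genes had a median of 0.21 over 4 genes. OGT, the transferase that puts N-acetylglucosamine on proteins, had 0.56, and OGA, which removes it, 0.28. UAP1 had 0.14 and GNPNAT1 -0.03. In the malate-aspartate shuttle and the use of α-ketoglutarate, with a median of 0.08 over 9 genes, IDH3A, IDH2 and OGDH had 0.44, 0.26 and 0.21. IDH1, a cytosolic isocitrate dehydrogenase, had -0.49, the malate dehydrogenase gene MDH1 -0.37 and SLC25A11 -0.03.

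CRBN encodes cereblon, a ubiquitin ligase receptor known to bind glutamine synthetase and mark it for degradation. It had 6.33 in the vector control and 7.03 with HIF-2α, a difference of 0.70 or 1.62-fold higher. ZNRF1, another ubiquitin ligase of glutamine synthetase, had 5.21 and 5.29. MYC, which drives glutamine uptake genes in many tumours, had 8.69 and 9.22, and ATF4, the amino acid response factor, 6.30 and 6.50. SIRT4, an inhibitor of glutamate dehydrogenase, was below the filter at 3.94 and 3.64. Protein and metabolite levels were not measured here.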

How the data were processed

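RNA of 1 vector control and 1 HIF2A culture of LP-1 was hybridised to 1 array each. The authors deposited log2 signals for 28869 probe sets, for which the submitters' processing notes name Affymetrix Expression Console. How it summarised and scaled the probes, and in which version, is not stated in the labels. The log base was inferred from the values, which reach 13.97.

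Of the probe sets 19310 carry 1 gene symbol in the array annotation. Of these 19279 were updated through Entrez numbers to RefSeq (GRCh38.p14), used only for names, gene order and promoters. A gene took its probe set with the highest mean, and passed when its brighter array reached 4.01, the median of all mean signals. Genes were counted at 2-fold and 1.5-fold, with no test.

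The genes and lists were chosen with earlier results of these data known. Named were all measured genes of the selection, per role up to 3 with the largest positive and 3 with the largest negative differences, the regulators, the 5 genes nearest to GLUL, and a few cell markers. Other exceptions are stated. Alternatives covered scaling, offset, filter, probe set, floor, neighbours, fold and mean. The code was tested on simulated data. Python 3.11.15, numpy 2.4.6, pandas 2.3.3 and statsmodels 0.14.6 were used.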

Additional observations from a re-analysis of the deposited data

How the results depend on the processing

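The difference of GLUL kept its sign in all 10 settings tried, between -1.885 and -1.18. It came to -1.25 when 32 was added to each linear value, which shrinks differences by construction, and to -1.18 with the dimmest probe set. In each setting, a fold of 1.5 included, GLUL counted as the 1 lower gene and 0 were higher. The median of the measured genes lay between 0.07 and 0.17, and their mean was -0.069. Of 60 values of the other 6 genes, 3 changed sign: SLC1A5 with its dimmest probe set, at -0.23, and GOT2 and SLC38A1 after subtracting the median of their neighbours, at -0.05 and -0.095. The filters leave each gene's value unchanged, and so does the floor for the measured genes of the selection, whose signals all lie above it. The probe set settings can change only GLUL and SLC1A5, and as both GLUL probe sets were lower they could not change the sign of GLUL. Pathway genes at least 1.5-fold higher numbered 6 after subtracting neighbours, 1 with the 75th percentile filter, 0 with 32 added and 0 at 2-fold, against 2. Those at least 1.5-fold lower numbered 4 after subtracting neighbours, 2 with the 75th percentile filter, 2 with 32 added and 2 at 2-fold, against 3. No scaling moved the median of all genes by more than 0.02. No replicate could be left out. No paired analysis was possible because each group has 1 array and no test was made. Signals near the olfactory receptor level bound what dim genes such as ALDH4A1 can show.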
